A study of Homo sapiens with 6 samples.

Results

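The 9p21 tumor suppressor locus is the stretch of the short arm of chromosome 9 that runs from KLHL9 to ELAVL2. It was taken here from 5 kb outside KLHL9 to 5 kb outside ELAVL2, chr9:21324665-23855601 of build hg38, a length of 2.53 Mb. Its 6 genes are KLHL9, MTAP, CDKN2A, CDKN2B, DMRTA1 and ELAVL2. Of 998906 peaks in 6 peak lists, 13 lay in the locus, or 0.00130%, and none of the 13 lay within 5 kb of any of the 6 genes.

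The lists come from CUT&Tag, in which an antibody brings the Tn5 transposase to a chromatin protein or histone mark so that the DNA around it can be cut out and sequenced. All libraries were made from MDA-MB-231, an established human line of triple negative breast cancer cells. NONO, a nuclear protein that binds RNA and DNA, was mapped in NC cells (the control, genotype WT) and in NONO-KD cells (genotype NONO knockdown). H3T11ph, a phosphorylated threonine of histone H3, and H3K27ac, a lysine acetylation that marks promoters and enhancers in use, were each mapped in NC cells (genotype WT) and in PKM2-KD cells (genotype PKM2 knockdown, lowering the M2 form of pyruvate kinase). The study silenced both genes with siRNAs and with short hairpin RNAs, and which of these the mapped cells received is not given in the sources used here. The paper's methods call the siRNA control NC and the hairpin control scrambled, and the mapped control cells are labelled NC. Each of the 6 groups had 1 library, so there were no replicates, no test between conditions was possible, and every interval below is a 95% exact interval for a ratio of 2 counts that covers counting error only.

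CDKN2A and CDKN2B encode inhibitors of the cyclin-dependent kinases CDK4 and CDK6, and so keep the retinoblastoma protein RB in its active, growth-restraining form. CDKN2A has a second product from its own promoter, p14ARF, which binds and restrains the ubiquitin ligase MDM2. The locus is among the regions most often lost from cancer genomes, and the neighbouring MTAP, which recycles methylthioadenosine to methionine, is often lost with it. MDA-MB-231 is described as a line that lacks CDKN2A, which is background here. Copy number was not measured by these lists, so DNA that is missing and DNA that is present without a called peak cannot be told apart.

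The sequences on which the comparison turns are the promoters, since a promoter rich in the dinucleotide CpG usually carries H3K27ac when its gene is in use. Below are the 250 bases before the start of 4 transcripts of the locus, and of FOCAD, the gene at which H3K27ac peaks set in again on the KLHL9 side, as a contrast. All are from RefSeq on GRCh38.p14, read 5′ to 3′ along the gene's strand, with each CG in capitals (CG reads the same on both strands). CDKN2A has 2 such promoters in the table, the upstream for p14ARF at chr9:21995325-21995574 (minus strand, inside the antisense gene CDKN2B-AS1) and the inner for p16INK4A at chr9:21974858-21975107 (minus strand, inside the CDKN2A gene). The others lie at chr9:22009306-22009555 (CDKN2B, minus strand), chr9:21802386-21802635 (MTAP, plus strand) and chr9:20684009-20684258 (FOCAD, plus strand).
CDKN2A (p14ARF): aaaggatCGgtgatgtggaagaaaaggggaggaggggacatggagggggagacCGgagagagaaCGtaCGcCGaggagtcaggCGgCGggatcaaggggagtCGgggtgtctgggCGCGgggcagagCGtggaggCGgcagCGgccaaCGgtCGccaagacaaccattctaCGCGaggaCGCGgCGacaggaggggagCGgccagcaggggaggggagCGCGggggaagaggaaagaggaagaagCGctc
CDKN2A (p16INK4A): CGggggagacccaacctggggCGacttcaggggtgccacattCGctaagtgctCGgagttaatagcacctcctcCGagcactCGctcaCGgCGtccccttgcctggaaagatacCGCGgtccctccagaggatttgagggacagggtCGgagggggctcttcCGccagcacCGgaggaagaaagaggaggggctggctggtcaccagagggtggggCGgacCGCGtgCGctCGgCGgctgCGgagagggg
CDKN2B: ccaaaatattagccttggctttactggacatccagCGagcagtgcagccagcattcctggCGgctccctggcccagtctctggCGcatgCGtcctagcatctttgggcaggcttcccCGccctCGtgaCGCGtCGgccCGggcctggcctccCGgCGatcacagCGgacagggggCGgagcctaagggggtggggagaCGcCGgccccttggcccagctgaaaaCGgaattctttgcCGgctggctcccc
MTAP: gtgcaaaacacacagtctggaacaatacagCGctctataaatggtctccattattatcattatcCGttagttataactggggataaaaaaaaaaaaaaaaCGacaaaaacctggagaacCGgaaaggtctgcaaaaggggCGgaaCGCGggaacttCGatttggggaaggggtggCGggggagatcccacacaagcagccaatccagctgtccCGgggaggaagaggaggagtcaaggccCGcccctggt
FOCAD: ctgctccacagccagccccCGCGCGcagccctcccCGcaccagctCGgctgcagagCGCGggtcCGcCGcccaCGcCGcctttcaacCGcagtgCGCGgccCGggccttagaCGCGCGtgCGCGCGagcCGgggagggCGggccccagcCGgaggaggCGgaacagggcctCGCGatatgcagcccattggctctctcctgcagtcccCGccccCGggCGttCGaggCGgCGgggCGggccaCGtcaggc

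These windows hold 24 CpG for p14ARF, 20 for p16INK4A, 18 for CDKN2B, 11 for MTAP and 35 for FOCAD. At least 15 CpG were found in 12098 of 22132 promoters in the RefSeq table, or 54.7%. FOCAD had an H3K27ac peak within 1 kb of this window in NC and in PKM2-KD cells, and the PKM2-KD peak, chr9:20684006-20685045, covered the window whole. FOCAD was picked because H3K27ac peaks set in again there, so this follows from the choice. It also has more CpG than each of the 4 windows of the locus. None of the 4 printed windows of the locus had a peak of any list within 1 kb.

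Over the whole locus the table has 12 promoters of the 6 genes, and 0 of the 12 had a peak of any list within 1 kb. Among them 8 had at least 15 CpG: KLHL9 with 16, both of CDKN2A, CDKN2B, and ELAVL2 starts with 19, 33, 24 and 22. All 8 lacked H3K27ac in both lists, and so did 12.3% of the 12098 CpG-rich promoters of the genome. Of all CpG-rich promoters, 79.1% had H3K27ac in NC and 76.0% in PKM2-KD cells. The remaining promoters of the locus had fewer CpG, 13 at DMRTA1, 11 at MTAP and 9 and 11 at ELAVL2. Several ELAVL2 windows overlap or lie close together, and the 8 promoters belong to 4 genes, so they are not independent of each other.

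Peaks were then counted for each gene, from 5 kb before it to 5 kb after it. KLHL9 (gene ID 55958, chr9:21329665-21335404), which encodes an adaptor of a CUL3 ubiquitin ligase, had 0 peaks in each of the 6 lists. MTAP (gene ID 4507, chr9:21802636-21941115), CDKN2A (gene ID 1029, chr9:21967752-21995324) and CDKN2B (gene ID 1030, chr9:22002903-22009313) also had 0 in each list. DMRTA1 (gene ID 63951, chr9:22446824-22455740), a transcription factor with a DM domain, and ELAVL2 (gene ID 1993, chr9:23690104-23850601), an RNA-binding protein of neurons, had 0 as well. The 6 genes were thus without a peak in NC and knockdown cells alike, which held for 166 of all 19974 protein-coding genes, or 0.831%. No H3K27ac peak in either list was found for 6 of the 6 genes and for 1.62% of all protein-coding genes. Being neighbours, the 6 genes share their surroundings, and their counts are not independent.

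How far each gene lay from its nearest peak differed widely between the lists. CDKN2B was the closest to any peak, 5.80 kb from a NONO peak of NONO-KD cells. The same peak was the nearest to CDKN2A, at 19.8 kb, and to MTAP, at 74.0 kb. DMRTA1 lay 26.4 kb and ELAVL2 44.4 kb from a NONO NC peak, and KLHL9 lay 205 kb from a NONO-KD peak. In all 6 cases the nearest peak was therefore a NONO peak.

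H3K27ac peaks were farther away. In NC cells the nearest was 288 kb from KLHL9, 761 kb from MTAP, 927 kb from CDKN2A, 962 kb from CDKN2B, 551 kb from DMRTA1 and 62.7 kb from ELAVL2. In PKM2-KD cells the nearest was 645 kb from KLHL9, 1118 kb from MTAP, 1283 kb from CDKN2A, 1318 kb from CDKN2B, 1762 kb from DMRTA1 and 1062 kb from ELAVL2. The distance in PKM2-KD cells was longer for each gene, and the PKM2-KD list is also the shorter, with 212856 peaks against 572970 in NC.

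For H3T11ph the nearest NC peak was 162 kb from MTAP, 305 kb from KLHL9, 327 kb from CDKN2A, 362 kb from CDKN2B, 806 kb from DMRTA1 and 1767 kb from ELAVL2. In PKM2-KD cells the distances ran from 651 kb at KLHL9 to 1768 kb at DMRTA1, since no H3T11ph peak of that list lay in the locus.

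**Figure D1:**
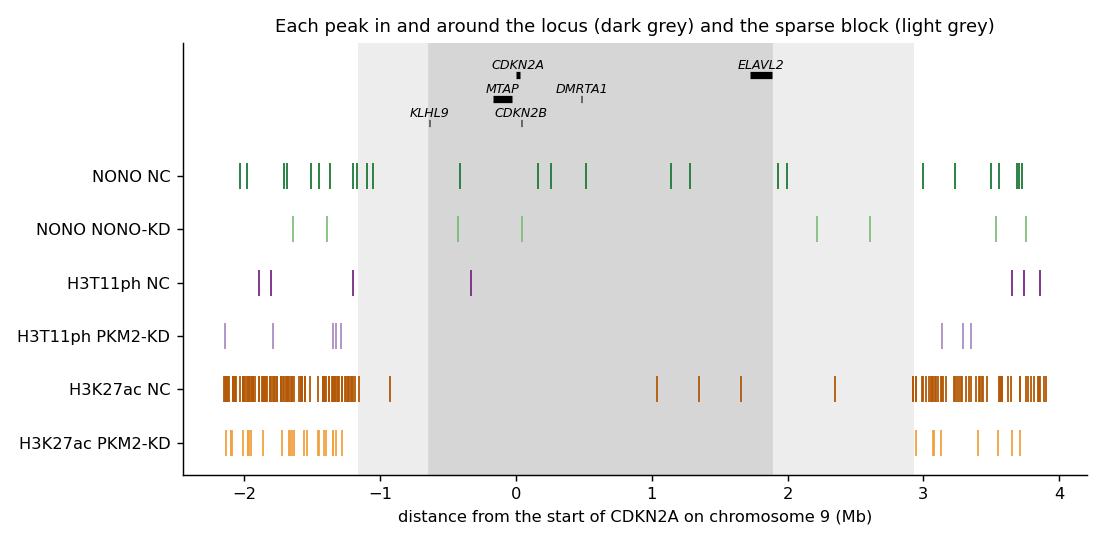
Position of every peak (vertical ticks) of the 6 lists in and around the locus, as the distance in Mb from the start of CDKN2A, with the 6 genes drawn as black bars above. Dark grey marks the locus, with 13 ticks in all, and light grey the longer block of 4.08 Mb described below, in which H3K27ac NC has 5 ticks between dense runs on either side.

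Over all 6 lists, the longest stretch of the locus without a peak was chr9:22482457-23007157, a length of 524.7 kb. It held no protein-coding gene. It lay between DMRTA1 and ELAVL2 and held LINC01239, a long non-coding RNA gene of 178 kb, whole. Across chromosomes 1 to 22 and X, 863611 such stretches lie between neighbouring peaks, and only 5 others were as long or longer. Those on chromosomes 1, 9, 16 and 2, of 18001, 15013, 8101 and 1005 kb, held no named protein-coding gene whole. The other, on X, was 555.1 kb long. Assembly gaps were not taken out, so this rank and those below may count stretches in which no read can be placed. The tumor suppressor genes were not in the stretch of 524.7 kb.

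MTAP, CDKN2A and CDKN2B lay together in the second longest stretch, chr9:21640412-22015115, which was 374.7 kb long and the 11th longest of the genome. The next in the locus was 313.2 kb long (chr9:23314109-23627282) and held no protein-coding gene. DMRTA1 lay in a stretch of 257.4 kb (chr9:22224764-22482187), ranked 21st. KLHL9 lay in a stretch of 499.1 kb that began outside the locus, chr9:21041213-21540357, and shared it with 16 interferon genes, which encode antiviral cytokines. Of 17 protein-coding genes in that stretch, 6 interferon genes (IFNA6, IFNA13, IFNA2, IFNA8, IFNA1 and IFNE) lay inside the locus, and all 12 protein-coding genes of the locus had 0 peaks in every list.

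The length depended on which lists were counted. In H3T11ph PKM2-KD and in H3K27ac PKM2-KD, the locus held no peak over its whole 2.53 Mb, and the stretches ran on outside it to 4.43 Mb and 4.23 Mb. In H3K27ac NC, the stretch holding KLHL9, MTAP, CDKN2A, CDKN2B and DMRTA1 was 1.97 Mb long (chr9:21041213-23007157). Within the locus the longest stretch was 2215 kb for H3T11ph NC, 1840 kb for NONO-KD and 628.0 kb for NONO NC. The short value of the 6 lists together was set mainly by NONO NC, and without that list it was 991.9 kb.

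The 13 peaks were few, narrow and low. NONO NC had 6, NONO-KD 3, H3T11ph NC 1, H3K27ac NC 3, and both PKM2-KD lists 0. No peak overlapped a peak of another list, 9 of the 13 had the narrowest width of their list, and none was 2 times that width. Fold here is the authors' enrichment of a peak's summit over the background used in calling peaks, whose source is not given. Each of the 13 had a fold below its list's median, at the percentile 2.91 to 33.5 of its list, and 7 of the 13 had a −log10 q of at least 5.

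The NONO peak nearest to the tumor suppressors was that of NONO-KD cells at chr9:22015116-22015229, inside CDKN2B-AS1 (also called ANRIL, the antisense RNA of this region) and 5.80 kb from CDKN2B, with a fold of 7.04. Its height, worked back from its fold and p, was 8 fragments. The highest peak of the locus was from NONO NC, at chr9:22132728-22132996, 4.59 kb past CDKN2B-AS1, with a fold of 12.64 and 23 fragments, and the median fold of NONO NC peaks was 23.7. Further NONO NC peaks lay at chr9:22224495-22224763 (14 fragments, fold 7.9) and at chr9:22482188-22482456, 26.4 kb from DMRTA1 (13 fragments, fold 7.37). The 4 peaks around CDKN2B-AS1 and DMRTA1 all had a −log10 q above 5, from 8.17 to 23.02, and none was seen in both NONO lists.

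On the KLHL9 side, MIR31HG held 3 NONO peaks. MIR31HG is the host RNA of miR-31, and it and the other non-coding genes named here were picked after their values were seen. Its NONO-KD peaks were chr9:21540358-21540485 (fold 4.69, 5 fragments) and chr9:21541470-21541587 (fold 8.61, 10 fragments), and its NONO NC peak was chr9:21559539-21559807 (fold 5.27, 9 fragments). The NC peak and the NONO-KD peaks did not overlap. MIR31 itself had 0 peaks within 5 kb in each list. Its mature 5p strand, at chr9:21512158-21512178 on the minus strand (RefSeq, GRCh38.p14), is shown with its seed in capitals because MIR31 is a microRNA gene of the locus and lies in the empty stretch of KLHL9.
hsa-miR-31-5p: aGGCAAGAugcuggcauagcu

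The H3T11ph NC peak, chr9:21640288-21640411, lay 1.61 kb from the pseudogene H3P30 and had a fold of 3.49, 4 fragments and a −log10 q of 1.71. On the ELAVL2 side, NONO NC had peaks at chr9:23110487-23110755 (fold 3.69, 6 fragments) and chr9:23252574-23252842 (fold 8.42, 15 fragments). The 3 H3K27ac NC peaks, at chr9:23007158-23007269, chr9:23313997-23314108 and chr9:23627283-23627394, were alike, each 112 bp wide with a fold of 3.6 and a −log10 q of 2.2. That fold was held by 10.1% of the list. Of these 6 peaks, the closest to a member gene was the last H3K27ac peak, 62.7 kb from ELAVL2.

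To set the locus beside its surroundings, peaks per Mb were compared with the 2 Mb on either side. H3K27ac NC had 3 peaks in the locus and 200 in the flanks, 147 on the KLHL9 side and 53 on the ELAVL2 side. The locus density was 2.37% of the flanks' (95% exact interval 0.485 to 7.03), where 127 peaks would be found at the flanks' density. H3K27ac PKM2-KD had 0 peaks against 43, 35 and 8 on the same sides, which is 0% with an upper bound of 14.2%. For H3K27ac the locus was therefore below its flanks by more than counting error in NC and in PKM2-KD cells.

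For NONO the gap was smaller. NONO NC had 6 peaks in the locus and 30 in the flanks, a density of 31.6% (10.8 to 77.2). NONO-KD had 3 against 7, or 67.7% (11.3 to 297), so a difference from the flanks was not detectable at this number of peaks. H3T11ph NC had 1 against 8, or 19.8% (0.445 to 147), which was also not detectable. H3T11ph PKM2-KD had 0 against 8, with an upper bound of 92.6%, and a count of 0 allows up to 1.19 peaks per Mb.

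Leaving the longest empty stretch, between DMRTA1 and ELAVL2, out of the locus raises every density by the same factor. The density of the rest was 2.99% of the flanks' for H3K27ac NC, 24.9% for H3T11ph NC, 39.9% for NONO NC, 85.4% for NONO-KD and 0% for both PKM2-KD lists. H3K27ac stayed below the flanks by more than counting error (upper bounds 8.87% in NC and 17.9% in PKM2-KD cells), as did NONO NC (upper bound 97.4%), whereas the upper bound for H3T11ph PKM2-KD rose from 92.6% to 117%, so that list was no longer separated from its flanks.

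**Figure D2:**
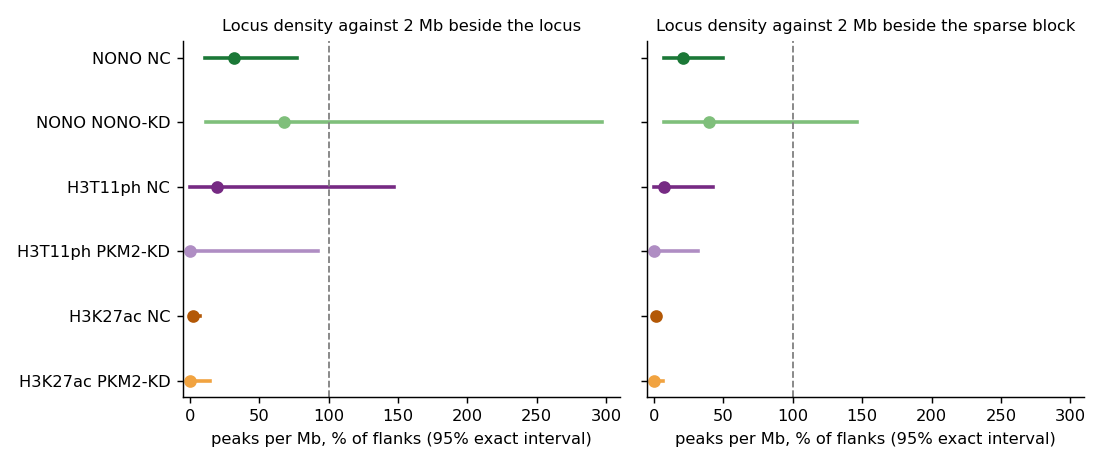
Peaks per Mb in the locus as a percent of the density in 2 Mb on either side, beside the locus (left) and outside the block of 4.08 Mb (right), for the 6 lists; bars are 95% exact intervals for counting error, and the dashed line is equal density. H3K27ac sits near 0 in both panels, at 2.37% and 1.2% in NC cells, and the NONO-KD bars cross 100% in both.

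The low density did not end at KLHL9 and ELAVL2. Where gaps of over 200 kb between H3K27ac NC peaks follow each other, they formed a block from chr9:20813536 to 24893499, 4.08 Mb long, a rule chosen after the data were seen. It began inside FOCAD, 511 kb outside the locus, and ended 1.04 Mb past it on the ELAVL2 side. H3K27ac NC had 5 peaks in it, all 112 bp wide with a fold of 3.6, H3K27ac PKM2-KD had 0, H3T11ph NC had 1, H3T11ph PKM2-KD had 0, NONO NC had 10 and NONO-KD had 5.

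The other 5 lists took no part in that rule. On the FOCAD side, their last peak before the block ended at position 20801443 in NONO NC, 20771969 in H3T11ph NC, 20685045 in H3K27ac PKM2-KD, 20679125 in H3T11ph PKM2-KD and 20577768 in NONO-KD. On the other side the first peak began at 24912874 in H3K27ac PKM2-KD, 24967133 in NONO NC, 25104690 in H3T11ph PKM2-KD, 25499648 in NONO-KD and 25617160 in H3T11ph NC. These positions are the nearest peaks outside a boundary that H3K27ac NC sets, and they do not show that the other lists end there: NONO NC went on with 10 and NONO-KD with 5 peaks inside the block.

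Since the 2 Mb beside the locus hold parts of this block, the locus was also compared with 2 Mb outside the block. The density was then 1.2% in H3K27ac NC (0.246 to 3.53; 3 peaks against 395), 0% in H3K27ac PKM2-KD (upper bound 6.13; 0 against 97) and 21.1% in NONO NC (7.35 to 49.5; 6 against 45). H3T11ph NC came to 6.87% (0.167 to 42.3; 1 against 23) and H3T11ph PKM2-KD to 0% (upper bound 32.0; 0 against 20), while NONO-KD, at 39.5% (7.16 to 146; 3 against 12), was still not told apart from equal density. These flanks begin where H3K27ac NC peaks resume, so the H3K27ac NC contrast follows from how the block was drawn and is given as a description. For H3T11ph NC, the interval lies below equal density with these flanks, which were chosen after the data were seen, and not with the 2 Mb beside the locus.

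**Figure D3:**
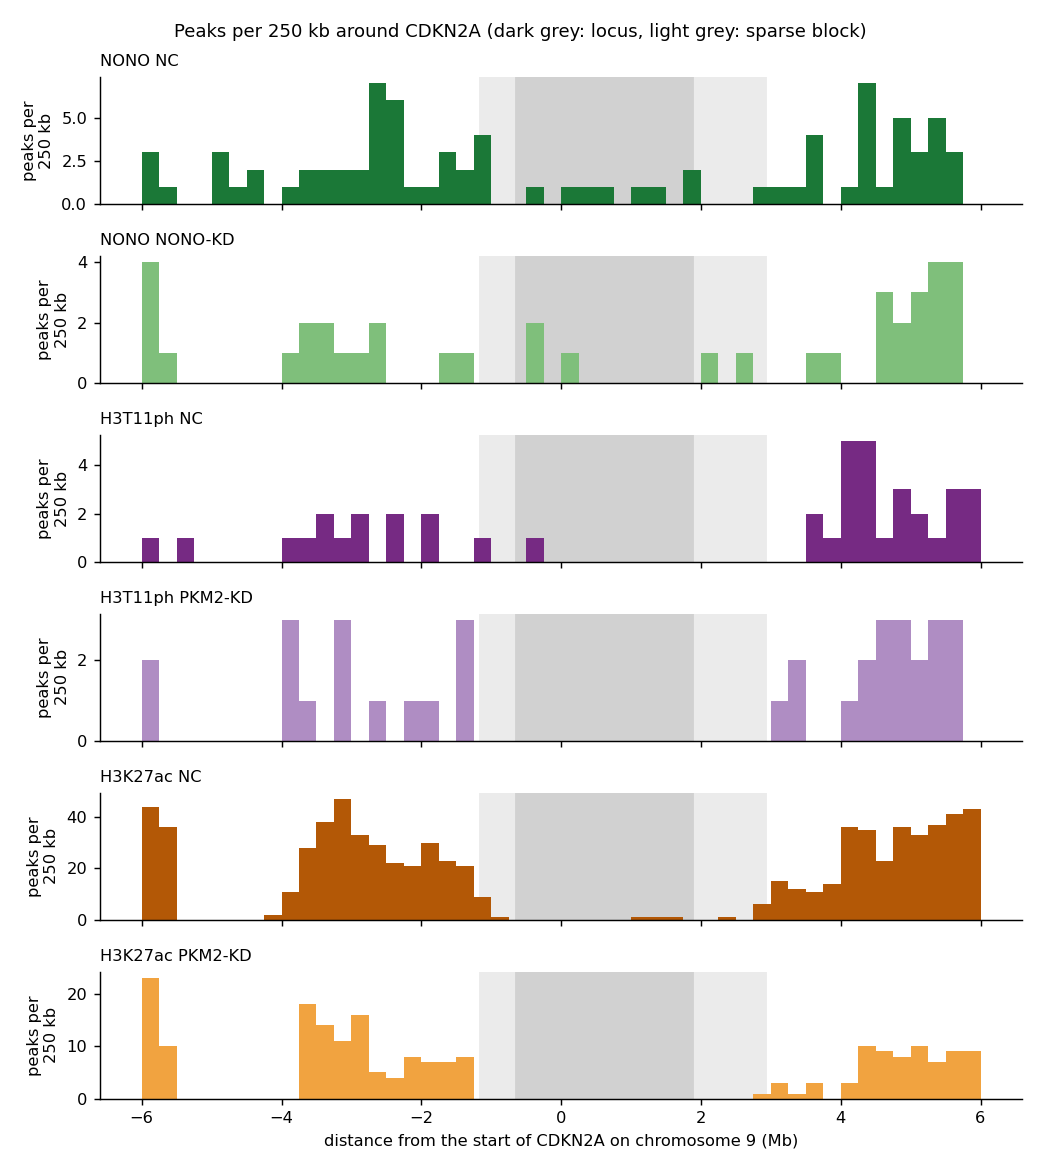
Peaks per 250 kb along chromosome 9, by distance in Mb from the start of CDKN2A, with 1 panel and its own vertical scale per list; dark grey is the locus and light grey the block of 4.08 Mb. H3K27ac falls from dense bins on both sides to 5 peaks in NC and 0 in PKM2-KD cells inside the block, while NONO NC keeps 10 scattered peaks. The block was drawn from gaps between H3K27ac NC peaks.

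All 24 protein-coding genes that lie whole in the block had 0 peaks within 5 kb in every list, which held for 0.831% of all protein-coding genes. Beside the locus's own 12 genes, the 24 were HACD4, 10 interferon genes on the KLHL9 side and IZUMO3 on the ELAVL2 side. Few H3K27ac NC peaks inside the block and more outside follow from how it was drawn, so these counts are a description. The genes just outside the block had peaks. FOCAD, in which the block begins, had 15 H3K27ac peaks in NC and 1 in PKM2-KD cells, and MLLT3, a chromatin reader beside it, had 21 and 8. TUSC1, the first gene past the other edge, had 2 and 1. Going outwards from there, CAAP1 had 12 and 4 and TEK, an endothelial receptor kinase, had 20 and 5.

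**Figure D4:**
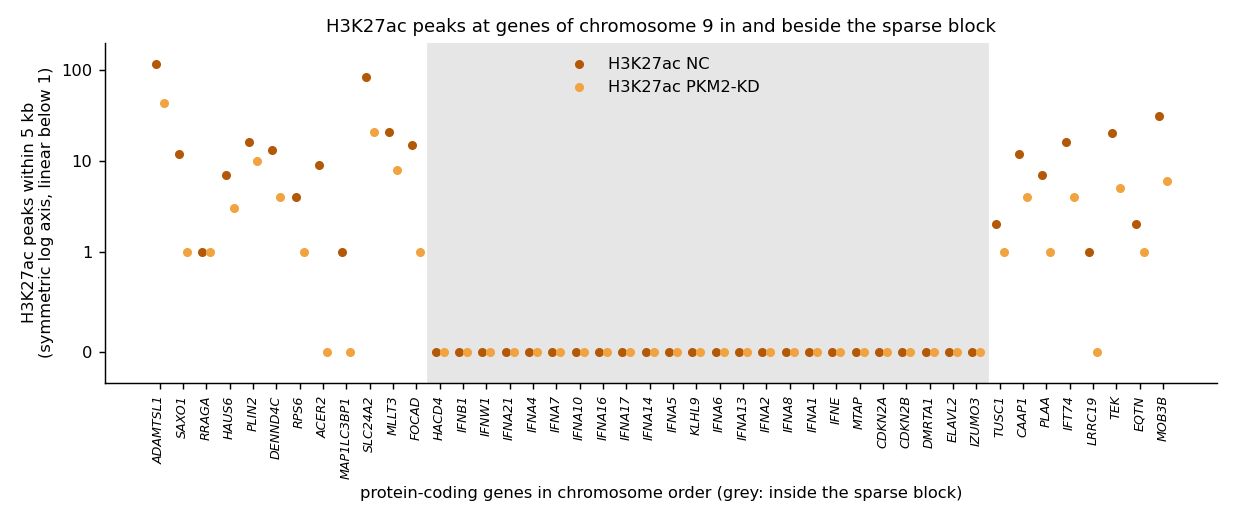
Number of H3K27ac peaks within 5 kb of each protein-coding gene (vertical axis logarithmic above 1 and linear below it), in chromosome order along 9p, in NC (dark) and PKM2-KD (light) cells; grey marks the genes inside the block. The 24 genes inside are at 0 in both lists, and each gene drawn outside has at least 1 peak in NC. The block was drawn from gaps between H3K27ac NC peaks, so the contrast in NC follows largely from that rule.

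Across the genome, empty stretches of this kind were uncommon. The locus has 25 windows of 100 kb, and 15 of them, 60.0%, held no peak of any list, against 3.70% of 30290 windows of chromosomes 1 to 22 and X. Among windows within 1 Mb of a protein-coding gene the share was 0.689%. With both H3K27ac lists alone, a choice made after the data were seen, 22 of the 25 windows, 88.0%, were empty, against 4.51%.

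Windows as long as the locus were counted as well, 1186 in all. At most the locus's number of peaks was found in 3.37% of them for NONO NC (6 peaks), 3.37% for NONO-KD (3), 3.20% for H3T11ph NC (1), 3.12% for H3T11ph PKM2-KD (0), 3.20% for H3K27ac NC (3) and 3.20% for H3K27ac PKM2-KD (0). The median window held 482 H3K27ac peaks in NC and 155 in PKM2-KD cells, 61.0 and 34.0 NONO peaks in NC and NONO-KD, and 30 and 27 H3T11ph peaks in NC and PKM2-KD. Of 700 windows with at least 10 protein-coding genes, 1 had as few peaks as the locus in each list, and it was the first window of chromosome 22. That window had 12 listed genes and 0 peaks in every list, and the window after it also had 0 in every list. Its genes are therefore among the protein-coding genes without a peak, and whether reads can be placed there was not tested. Assembly gaps, in which no read can be placed, were not taken out of these shares because no whole-genome sequence was used here.

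**Figure D5:**
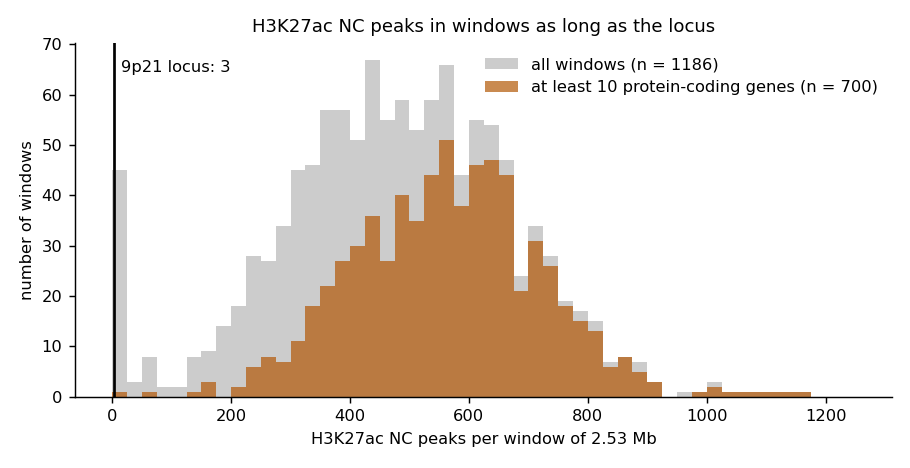
Number of H3K27ac NC peaks in each of 1186 windows of 2.53 Mb (grey) and in the 700 of them with at least 10 protein-coding genes (brown), in bins along the horizontal axis; the vertical line is the locus. The locus, with 3 peaks, stands at the left end, far below the median of 566 peaks among windows with at least 10 genes.

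Genes of the pathways that these members serve had H3K27ac about as often as other genes did. Of 19 genes that act with RB or MDM2 in cell cycle control, 19 had an H3K27ac peak within 5 kb in NC and 18 in PKM2-KD cells, with medians of 10 and 7 peaks per gene, while 19463 and 17894 of all 19974 protein-coding genes had one, with medians of 9 and 4. The exception was CCND2, encoding a D-type cyclin, with 7 peaks in NC and 0 in PKM2-KD cells, and it was named after its values were seen. Among the targets of the locus's products, CDK4 had 6 and 4 peaks in NC and PKM2-KD cells, CDK6 had 72 and 45, and MDM2 had 13 and 6. Downstream of them, RB1 had 35 and 12, and CCND1, encoding the cyclin partner of CDK4 and CDK6, had 10 and 16. Counts per gene were not set against gene length, so they do not rank the genes, and CDKN2A differed from each of these genes in having none in either list.

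Of 8 genes related to MTAP through methionine salvage or PRMT5, the arginine methyltransferase that MTAP's substrate inhibits, 8 had H3K27ac in each list, where nearly all genes do. PRMT5 had 9 and 7 peaks and MAT2A, which makes S-adenosylmethionine, had 11 and 5. Of 6 paralogs or partners of the other members, 6 had H3K27ac in each list. ELAVL1, the ubiquitous relative of ELAVL2, had 21 and 14 peaks, and CUL3, the scaffold that KLHL9 binds, had 27 and 14. No gene of the 3 lists lacked H3K27ac in both H3K27ac lists, and with 1.62% of all genes lacking it this is no result about these pathways.

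Between NC and knockdown cells, differences in the locus could not be separated from the length of the lists. NONO-KD had 50% of the NONO NC peaks in the locus (3 against 6, interval 8.09 to 234), and over all chromosomes 49.6%. H3T11ph had 0 against 1, with an upper bound of 3900%, and H3K27ac 0 against 3, with an upper bound of 242%. Over all chromosomes these PKM2-KD lists had 85.7% and 37.1% of the NC peaks. The lists of a pair also differ in form, since 94.6% of NONO NC peaks and 79.3% of H3K27ac NC peaks have exactly the narrowest width of their list, against 1.19% to 2.05% in the other 4 lists, and the part of that in these ratios was not tested.

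Among other protein-coding genes without a peak in any list, the 3 that lie in the longest empty stretches were USP26, TFDP3 and GPC4. They share a stretch of 555.1 kb on the X chromosome (chrX:132882924-133438032), and the next are the interferon genes beside KLHL9, at 499.1 kb. Likeness here means only 0 peaks within 5 kb in 6 lists and the length of the stretch.

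The labelled cell type was checked at 8 genes, by H3K27ac within 1 kb of a gene end. Of 4 basal-like or mesenchymal genes 4 had it in each list, and of 4 luminal genes 4 had it in NC and 3 in PKM2-KD cells. These counts did not tell the basal-like or mesenchymal genes from the luminal genes in NC cells. By a near measure, a peak within 1 kb of a promoter, 69.5% of all promoters had H3K27ac in NC and 60.7% in PKM2-KD cells. In NC cells the widest peak at a gene end ran from 1640 bp at CAV1 to 7230 bp at AXL among the basal-like or mesenchymal genes. Among the luminal genes it ran from 112 bp at ESR1, encoding the estrogen receptor, and at CDH1 to 798 bp at GATA3. The luminal gene without a peak in PKM2-KD cells was CDH1, encoding E-cadherin.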

How the data were processed

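CUT&Tag for NONO, H3T11ph and H3K27ac was carried out in MDA-MB-231 cells with Illumina sequencing. The authors deposited 1 peak list in narrowPeak form per library. In these deposited lists the fold is a linear ratio of the summit pileup over the background of the same library, significance appears as −log10 p and −log10 q, and the score equals −log10 q times 10 with decimals dropped. The submitters' processing notes name build hg38 and the tools FastQC 0.11.9, cutadapt 1.18, SAMtools 1.3.1, MACS2 2.1.1.20160309 and DESeq2. The aligner, any control library and the caller's settings are not given in the sources used here. The smallest −log10 q of a list was 1.3 to 1.32. Depth per library is unknown from peak lists.

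On chromosomes 1 to 22 and X the NC lists held 572970 peaks for H3K27ac, 89474 for NONO and 42674 for H3T11ph, and the knockdown lists 212856, 44349 and 36583 in that order. Samples were grouped by title. A peak belonged to a region or gene that it touched, genes being widened by 5 kb. Genes, promoters and the microRNA came from RefSeq tables of GRCh38.p14, which has the coordinates of hg38, and all 6 members were matched by symbol. Summit heights were worked back from fold and p with a tolerance of 0.002 in −log10 p. In H3K27ac NC a match needed the pileup to be multiplied by 0.5209. The peaks of that list in the block matched more than 1 number of fragments, so their heights are not given. In each list 100% of 300 peaks sampled from those with a −log10 p below 50 were matched. Densities are given with exact 95% intervals for a ratio of 2 counts. No p-value was computed. The steps were tested on simulated data and run in Python 3.11.15 with numpy 2.4.6, pandas 2.3.3 and scipy 1.17.1.

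Genes planned to be named were the 6 members, the genes in and beside the longest empty stretch, CDK4, CDK6, RB1, MDM2, CCND1, PRMT5 and MAT2A. Also planned were any listed pathway gene without H3K27ac in both lists, and the 3 other genes without peaks in the longest empty stretches. Other genes named in the text were outside this plan, such as FOCAD, MLLT3, TUSC1, CAAP1, TEK, ELAVL1, CUL3, CCND2 and those of the other blocks. A planned pathway gene was left out of its list and is not reported here. The members and gene lists were chosen with earlier results of these data known. Alternatives were a −log10 q of at least 5, a width of at least 2 times the list's narrowest, other windows, flanks and distances, and lists left out or taken alone.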

Additional observations from a re-analysis of the deposited data

How the results depend on the processing

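Under alternative settings, 83 values stayed within 1.5 times the reported value or within its interval and 16 did not. The longest empty stretch of the locus, 524.7 kb, was 2531 kb, the whole locus, when only peaks at least 2 times the narrowest width were kept, and leaving out each list in turn gave 524.7 to 991.9 kb, the highest without NONO NC. It was 1840 kb in NONO-KD alone and in the 4 lists of 1 form (added after the data were seen), 2215 kb in H3T11ph NC alone, 1682 kb in H3K27ac NC alone and 2531 kb in either PKM2-KD list alone, as fewer peaks make longer gaps. The share of empty 100 kb windows was 100% with the width filter, against 21.8% over all chromosomes. The locus density fell from 19.8% to 0% of the flanks' in H3T11ph NC when peaks with a −log10 q under 5 were dropped, and from 2.37% to 0% in H3K27ac NC under that filter and under the width filter, and likewise outside the longest stretch. Within the intervals, the choice of flank still moved densities: with flanks of 1 Mb and 5 Mb they were 79.0% and 9.41% in H3T11ph NC, 5.78% and 1.57% in H3K27ac NC, 52.7% and 27.9% in NONO NC and 59.3% and 32.9% in NONO-KD. Outside the longest stretch, NONO NC was at 28.5% of the KLHL9 side alone and 66.5% of the ELAVL2 side alone, H3K27ac NC at 2.03% and 5.64%. Within 10 kb the members had 1 peak, the NONO-KD peak beside CDKN2B, against 0 within 5 kb. No knockdown ratio could be given under the width filter, with the longer list of a pair shortened by −log10 q to the length of the shorter, or, for H3T11ph and H3K27ac, at a −log10 q of 5, because no NC peak was left in the locus. The width filter left no peaks from which a NONO or H3T11ph density could be given. No paired analysis was possible because the groups are of 1 library and no label numbers a replicate. Peak lists give neither reads nor copy number, and with 13 peaks in the locus only H3K27ac could be set apart in both conditions from the 2 Mb beside the locus.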

Other observations

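By the same rule of consecutive gaps of over 200 kb between H3K27ac NC peaks, 12 blocks of at least 1 Mb were found on chromosomes 1 to 22 and X, and 3 of them held protein-coding genes whole. Low H3K27ac NC counts in these blocks follow from the rule. The 9p21 block was the longest of the 3, with 24 genes, 24 of them without a peak of any list. The next was chrX:131293092-133479063, 2.19 Mb long, with 9 genes, of which 8 had no peak. It holds STK26, a protein kinase, MBNL3, a splicing regulator, and GPC4, a cell-surface proteoglycan. The NC lists had 6 peaks for NONO, 2 for H3T11ph and 1 for H3K27ac in it, NONO-KD had 1, and both PKM2-KD lists had 0.

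The third lies on the same chromosome arm as the tumor suppressor locus, chr9:16450785-17899346, 1.45 Mb long. It holds CNTLN, encoding a centriole protein, and SH3GL2, encoding an endocytosis protein of neurons, and 0 of these 2 genes lacked a peak. NONO NC had 6 peaks in it and H3T11ph NC had 1, and the other 4 lists had 0. Copy number was not measured at these blocks.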
